A study of Mus musculus with 6 samples.

Results

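The Kruppel-like factor (KLF) genes expressed in the vessel wall were read in bulk RNA-seq libraries of mouse aorta. The 10 genes Klf2, Klf3, Klf4, Klf5, Klf6, Klf7, Klf10, Klf11, Klf13 and Klf15 were taken by their symbols from a table of 55335 genes, and all 10 had enough counts to be tested among 16612 genes. The study compared wild-type C57BL/6 mice aged 6 weeks (young, 3 mice) with wild-type C57BL/6 mice aged 6 months (aged, 3 mice), with no treatment and with 1 library per mouse. The study's methods describe all mice as male and say that the fat around the aorta was dissected before a piece of vessel was frozen. No older animals were sequenced, so "aged" stands for 6 months throughout.

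KLF proteins are transcription factors that bind GC-rich and CACCC-containing DNA through zinc fingers at their carboxyl end, and they differ mainly in the activating or repressing part in front of the fingers. In endothelium, laminar flow raises KLF2 and KLF4 through the kinases MEKK3, MEK5 and ERK5 and the MEF2 factors, and both proteins favour an anti-thrombotic and anti-inflammatory state. In smooth muscle, KLF4 represses contractile genes when cells dedifferentiate, KLF5 accompanies growth after injury, and KLF15 restrains it.

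The promoters of Klf2, Klf4, Klf6 and Klf15 are shown because early response, clock, glucocorticoid or flow signals are known to act on these genes. Promoter entries (RefSeq, GRCm38.p6) were found for 8 of the 10 genes, and Klf5 and Klf10 had none. Each line gives 220 bases read 5′ to 3′ on the strand of the gene, from base 250 to base 31 before the RefSeq start. Capitals mark a MEF2 site or the E-box CACGTG, which the clock proteins bind.
Klf2 promoter, chr8:72318812-72319031, plus strand: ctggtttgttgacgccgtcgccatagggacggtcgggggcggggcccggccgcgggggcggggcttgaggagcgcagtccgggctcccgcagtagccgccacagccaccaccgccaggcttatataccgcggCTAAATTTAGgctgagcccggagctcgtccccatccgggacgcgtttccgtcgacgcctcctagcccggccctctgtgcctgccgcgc
Klf4 promoter, chr4:55532506-55532725, minus strand: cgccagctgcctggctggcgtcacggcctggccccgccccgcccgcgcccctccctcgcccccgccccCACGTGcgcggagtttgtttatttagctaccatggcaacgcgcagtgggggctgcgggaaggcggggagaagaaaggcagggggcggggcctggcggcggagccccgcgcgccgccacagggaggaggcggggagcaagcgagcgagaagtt
Klf6 promoter, chr13:5861239-5861458, plus strand: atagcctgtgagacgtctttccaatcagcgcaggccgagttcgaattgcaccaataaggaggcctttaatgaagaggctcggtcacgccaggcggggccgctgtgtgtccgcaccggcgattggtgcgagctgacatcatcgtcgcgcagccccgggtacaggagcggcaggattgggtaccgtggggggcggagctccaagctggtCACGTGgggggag
Klf15 promoter, chr6:90462326-90462545, plus strand: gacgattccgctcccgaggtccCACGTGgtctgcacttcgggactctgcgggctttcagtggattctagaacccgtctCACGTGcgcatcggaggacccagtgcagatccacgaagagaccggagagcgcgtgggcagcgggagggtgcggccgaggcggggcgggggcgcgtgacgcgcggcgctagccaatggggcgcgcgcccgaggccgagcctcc

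In these windows the MEF2 site of Klf2 began 118 bases before the start, and such a site was present in 1 of the 8 KLF windows and in 2.60% of 32851 promoter windows of the same length. CACGTG was present in 4 of 8 windows, those of Klf4, Klf6, Klf11 and Klf15, against 5.01% of all windows, and Klf15 held it at bases 228 and 172 before the start. GGGCGG (a GC box, read on both strands) was present in 8 of 8 windows and in 28.5% of all windows. CACCC, the KLF target sequence read on both strands, was present in 3 of 8 windows against 47.8%. No window held TGACGTCA (1.14% of all windows), TTATGTAA (0.737%) or a CArG box (1.30%). These matches describe letters and not binding.

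Library totals lay between 31049632 and 45832185 counts. Young replicate 1 stood apart from the description of the mice, with the female-specific RNA Xist at 306 CPM (counts scaled to library size with TMM factors) and the Y-linked gene Ddx3y at 1.09 CPM, against at most 0.636 CPM and at least 44.8 CPM in the other libraries. Its clock genes also stood apart, with Npas2 at 71.2 CPM against 2.12 to 9.97 CPM elsewhere. Aged replicate 2 carried the brown fat gene Ucp1 at 1420 CPM against 45.2 to 361 CPM elsewhere. The labelled tissue was checked by smooth muscle genes, of which 8 summed to 28000 to 40300 CPM, while 8 endothelial markers summed to 358 to 1670 CPM. The highest endothelial sum was that of aged replicate 3, and the other 5 libraries reached at most 523 CPM. Genes of the mitochondrial genome took 14.9% to 21.2% of the counts in young and 23.1% to 30.4% in aged libraries. The 2 ages were compared by edgeR's quasi-likelihood test, with p values adjusted over all genes tested.

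edgeR called 0 of the 10 KLF genes at an adjusted p below 0.05, and 0% of all genes. DESeq2 also called 0 of the 10, with 2.03% of all genes called, limma on FPKM called 0, and edgeR without aged replicate 2 called 0 with 0.642% of all genes called. At an unadjusted p below 0.05 edgeR gave 1 of 10 genes, Klf4, which was higher in aged aorta, where 10.4% of all genes tested passed the same rule 5.56% did so in that direction and 4.82% in the other. The aged over young log2 fold change was above 0 for 7 genes (52.1% of all genes) and below 0 for 3, with a median of 0.14 against 0.02 for all genes. The CPM of young and aged libraries overlapped for all 10 genes, while 16.5% of all genes had groups that did not overlap, 7.74% with higher and 8.78% with lower aged values. Counting both directions, the share of KLF genes past each of these rules with all libraries was close to or under that of all genes.

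**Figure D1:**
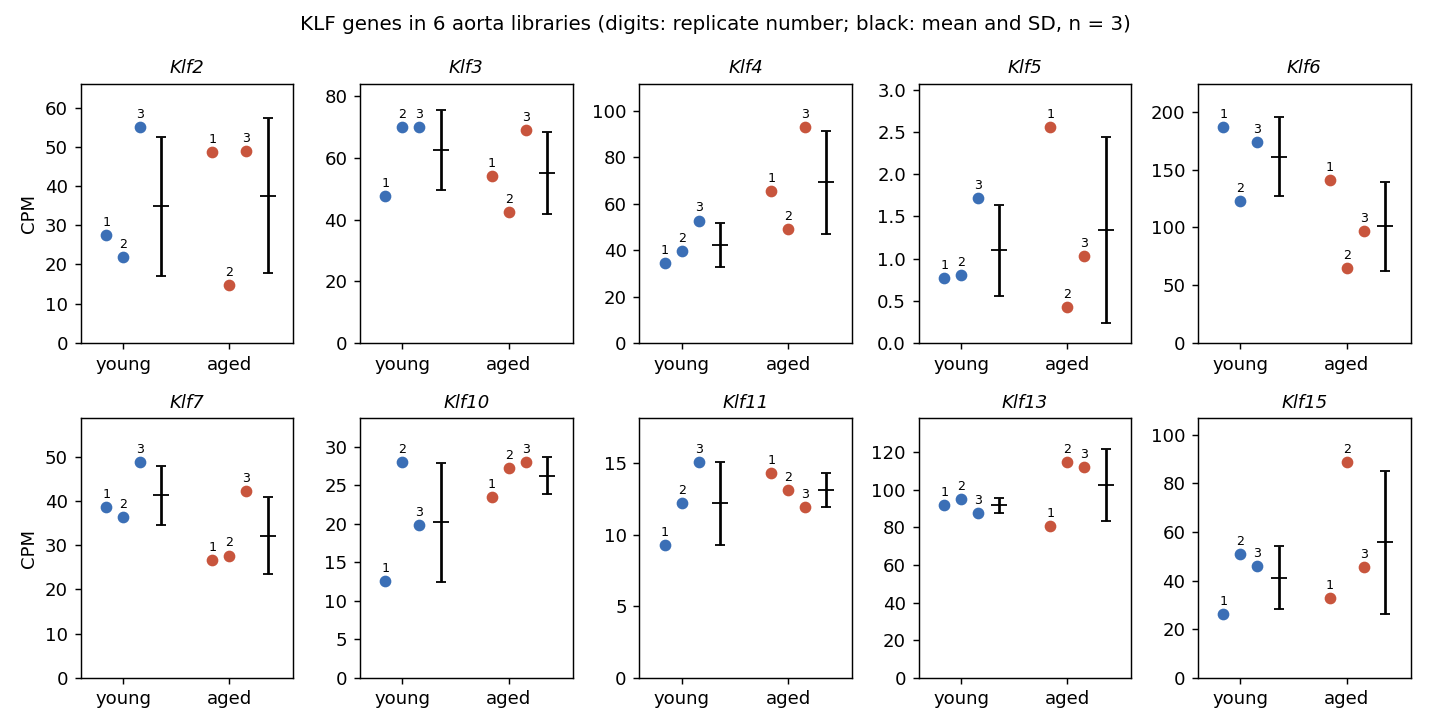
CPM of the 10 KLF genes in the young (blue) and aged (red) aorta libraries, with the replicate number above each point and the mean ± SD of 3 libraries in black, each panel with its own axis from 0. The groups overlap in every panel, Klf4 and Klf6 differ most between the means for their spread, and aged replicate 2 is lowest for Klf2, Klf3, Klf5 and Klf6 and highest for Klf15.

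Of Klf2 and Klf4, the flow-responsive pair of endothelium, Klf4 had the smallest p of the 10 genes and Klf2 the largest. Klf4 (chromosome 4, 55527143 to 55532466, minus strand, GRCm38) was at 34.3, 39.7 and 52.8 CPM in young replicates 1, 2 and 3 and at 65.4, 49.1 and 93.2 CPM in aged replicates 1, 2 and 3. The groups overlapped by young replicate 3, which lay above aged replicate 2. The means were 42.3 ± 9.49 CPM in young and 69.2 ± 22.3 CPM in aged aorta (SD, n = 3 each). The log2 fold change of aged over young was 0.71 with a standard error of 0.27 (adjusted p = 0.448, edgeR), and the unadjusted value from edgeR was 0.0342. With 1 library left out, Klf4 kept an unadjusted p below 0.05 in 2 of 6 cases. These were the cases without young replicate 3, where 6.13% of all genes passed, and without aged replicate 2, where 13.8% did. Klf4 was highest in aged replicate 3, the library with the highest endothelial sum. Elsewhere the order differed. Endothelial sums were 523, 455 and 413 CPM in young and 403 and 358 CPM in aged replicates 1 and 2. Fibroblast marker sums were 1860, 2130 and 2860 CPM in young and 6580, 1700 and 4830 CPM in aged replicates 1, 2 and 3. The part of these cell types in the level of Klf4 was not tested. Without aged replicate 3 the log2 fold change of Klf4 was 0.44 (adjusted p = 0.708, edgeR). Without young replicate 1 it was 0.59 (adjusted p = 0.504, edgeR), and without both young replicate 1 and aged replicate 2 it was 0.79 (adjusted p = 0.245, edgeR).

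Klf2 (chromosome 8, 72319033 to 72321656) was at 27.5, 21.8 and 55.1 CPM in young and at 48.8, 14.7 and 49.0 CPM in aged replicates 1, 2 and 3. The level differed more within each age than between them, with a 3.76-fold span over the libraries. Klf2 was lowest in the replicates numbered 2 of both ages, which also had the lowest sums of 13 immediate early genes, 1170 CPM in young replicate 2 and 1330 CPM in aged replicate 2 against 1500 to 2550 CPM in the others. The means were 34.8 ± 17.8 CPM in young and 37.5 ± 19.8 CPM in aged aorta (SD, n = 3 each), and aged over young came to 0.11 on the log2 scale with a standard error of 0.51 (adjusted p = 0.953, edgeR). Its sign turned when any of 4 single libraries was left out, with values down to -0.13. Per length, Klf4 divided by Klf2 was 0.757, 1.10 and 0.580 in young and 0.812, 2.03 and 1.15 in aged replicates 1, 2 and 3, so that the pair changed order between libraries of the same age. Both genes are also expressed outside endothelium, and in whole tissue fewer cells of a type and less RNA per cell cannot be told apart.

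Klf6, an early response gene induced by injury, had the highest mean per length of the 10 genes in young aorta. On chromosome 13 (5861482 to 5870394), it was at 187, 123 and 174 CPM in young and at 141, 64.7 and 96.9 CPM in aged replicates 1, 2 and 3. Only aged replicate 1 reached into the young range. The means were 161 ± 34.0 and 101 ± 38.2 CPM (SD, n = 3 each). Its log2 fold change was -0.68 with a standard error of 0.31 (adjusted p = 0.501, edgeR), and the unadjusted value from edgeR was 0.0604. It was negative under all 15 other settings and lay between -0.998 and -0.32, the smallest in size being that without both young replicate 1 and aged replicate 2.

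Klf5, which drives growth of smooth muscle after injury and is high in epithelia, had the lowest counts of the 10 genes. It had 16 to 85 counts in a library, at 0.764, 0.805 and 1.72 CPM in young and 2.56, 0.424 and 1.03 CPM in aged replicates 1, 2 and 3. The aged libraries held both the highest and the lowest value. Its log2 fold change, 0.29, had a standard error of 0.71 (adjusted p = 0.903, edgeR) and became -0.60 without aged replicate 1. Klf7, a factor best known from neurons and fat cell precursors, was at 38.7, 36.4 and 49.0 CPM in young and 26.7, 27.7 and 42.3 CPM in aged replicates 1, 2 and 3. Aged replicate 3 alone lay within the young range, and the log2 fold change was -0.36 (standard error 0.23, adjusted p = 0.608, edgeR), below 0 under all 15 other settings.

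Klf3, a repressor that works with the corepressor CtBP, was at 47.7, 69.9 and 70.1 CPM in young and 54.1, 42.6 and 69.1 CPM in aged replicates 1, 2 and 3. At -0.18, the log2 fold change was smaller in size than its standard error of 0.24 (adjusted p = 0.807, edgeR). Transcripts annotated over Klf3 and Klf13 had at most 67 and 155 counts in a library, against at least 1608 and 2680 for these genes, and whether the counting used strand is not given in the sources used here.

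Klf10 and Klf11, which TGF-beta induces and which repress through Sin3, were low. Klf10 was at 12.6, 28.1 and 19.9 CPM in young and 23.5, 27.3 and 28.0 CPM in aged replicates 1, 2 and 3. Its lowest value was that of young replicate 1, the library in which the clock output Dbp was at 10.1 CPM against 125 to 436 CPM elsewhere and Per1 at 21.5 CPM against 90.5 to 176 CPM. Klf10 is known as a clock-controlled gene, and the part of the clock genes in its value was not tested. Its log2 fold change was 0.38 with all libraries (standard error 0.29, adjusted p = 0.657, edgeR), 0.14 without young replicate 1 and 0.71 without young replicate 2. Klf11 stayed between 9.29 and 15.1 CPM, and its log2 fold change, 0.11 (standard error 0.23, adjusted p = 0.886, edgeR), turned to -0.047 without young replicate 1.

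Klf13 is known from lymphocytes and heart, and Klf15 from metabolism in fasting. Klf13 had the narrowest span of the 10 genes, from 80.6 to 115 CPM, a ratio of 1.43. Its log2 fold change was 0.17 with a standard error of 0.18 (adjusted p = 0.758, edgeR). Klf15, a factor of amino acid and glucose use in muscle, liver and fat, was at 26.4, 51.1 and 45.9 CPM in young and 32.8, 89.0 and 45.5 CPM in aged replicates 1, 2 and 3. Aged replicate 2 was far above the rest, and the other aged libraries lay within the young range. This library had the highest sums of 3 brown fat markers (1810 CPM against 66.8 to 524 CPM) and of 6 white fat markers (2740 CPM against 916 to 1730 CPM). The sum of 8 glucocorticoid response genes was also highest in aged replicate 2, at 1060 CPM against 167 to 840 CPM. The Klf15 log2 fold change was 0.44 (standard error 0.40, adjusted p = 0.713, edgeR) and -0.069 without aged replicate 2. Leaving out this library removes all of its differences at once. The part of the fat or of the glucocorticoid response in the level of Klf15 was not tested.

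**Figure D2:**
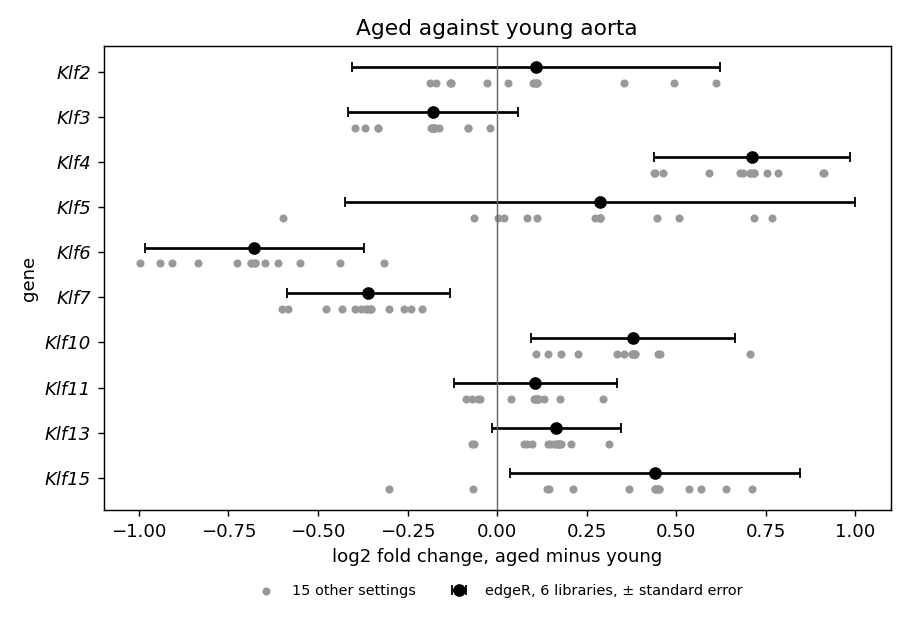
Log2 fold changes of the 10 KLF genes in aged against young aorta from edgeR with all libraries (black, ± standard error), with the 15 other settings as grey points under each. Klf4 stays above 0 and Klf6 and Klf7 below 0 under all settings, whereas Klf2, Klf5, Klf11, Klf13 and Klf15 have grey points on both sides.

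Levels of different genes were compared per length, as the authors' FPKM. Among the 10 genes, Klf6 had the highest mean over the 6 libraries at 27.5 ± 11.2 FPKM, followed by Klf2 at 17.7 ± 8.39, Klf4 at 16.2 ± 4.99, Klf15 at 15.6 ± 6.67 and Klf13 at 11.6 ± 1.35 FPKM (SD, n = 6 each). The ranges of neighbours in this upper group overlapped, and Klf2 exceeded Klf4 in 3 of 6 libraries. Klf13 lay above Klf10 in 6 of 6 libraries without overlap, which separated the upper from the lower group. Klf10, Klf3, Klf7 and Klf11 followed at 4.99 ± 1.24, 4.76 ± 1.2, 4.13 ± 1.18 and 2.63 ± 0.503 FPKM (SD, n = 6 each), again with overlapping neighbours. Klf5 came last at 0.207 ± 0.132 FPKM, below Klf11 in 6 of 6 libraries.

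**Figure D3:**
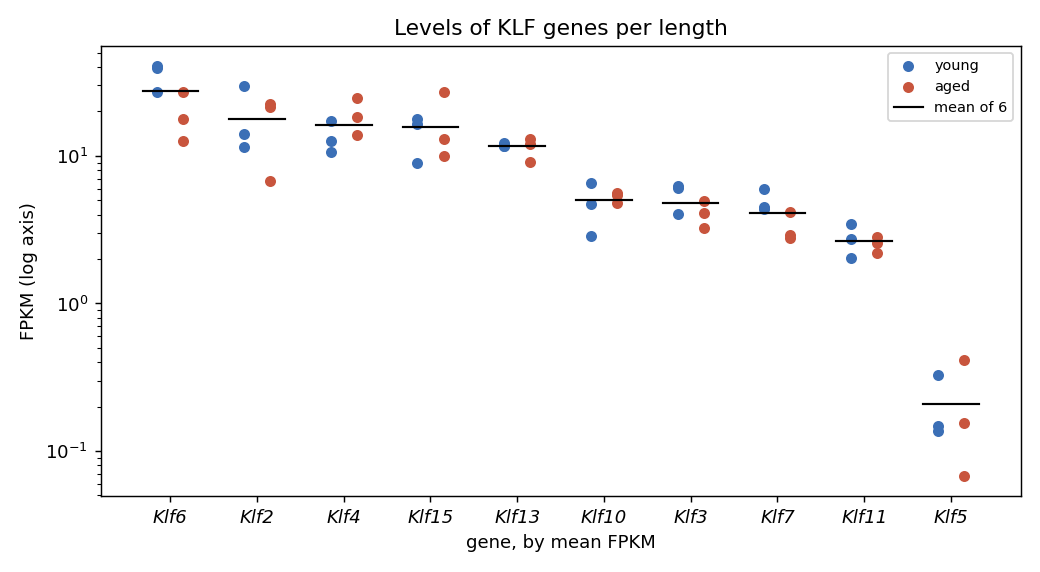
FPKM (log axis) of the 10 KLF genes in young (blue) and aged (red) libraries, ordered by the mean over 6 libraries (black line). The genes form an upper group from Klf6 to Klf13, a lower group from Klf10 to Klf11, and Klf5 far below.

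The leading gene among the 10 differed between libraries. Klf6 had the highest FPKM of the 10 genes in young replicates 1, 2 and 3 and in aged replicate 1, while Klf15 led in aged replicate 2 and Klf4 in aged replicate 3. Of the summed FPKM of the 10 genes, Klf6 took 40.7%, 26.9% and 29.2% in young and 26.8%, 14.3% and 16.8% in aged replicates 1, 2 and 3. The highest aged share lay just under the lowest young share. The sum itself was 112 ± 20.0 FPKM in young and 98.5 ± 9.49 FPKM in aged aorta (SD, n = 3 each), a difference smaller than the young SD. Klf6 divided by Klf4 was 3.78, 2.15 and 2.29 in young and 1.5, 0.914 and 0.722 in aged replicates 1, 2 and 3, a ratio that does not depend on the scaling of libraries. The ratio was chosen after the values of its genes were seen and is given without a test. On the FPKM scale 2 of 10 genes, Klf6 and Klf7, had groups that did not overlap, both lower in aged aorta, where 24.2% of all genes did not overlap and 20.9% were lower. For Klf6 the groups parted only beyond the digits given, with 27.3 FPKM in both young replicate 2 and aged replicate 1. FPKM are scaled to all reads of a library, and with limma on log2 FPKM the median over all genes shifted from 0.02 to -0.12.

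**Figure D4:**
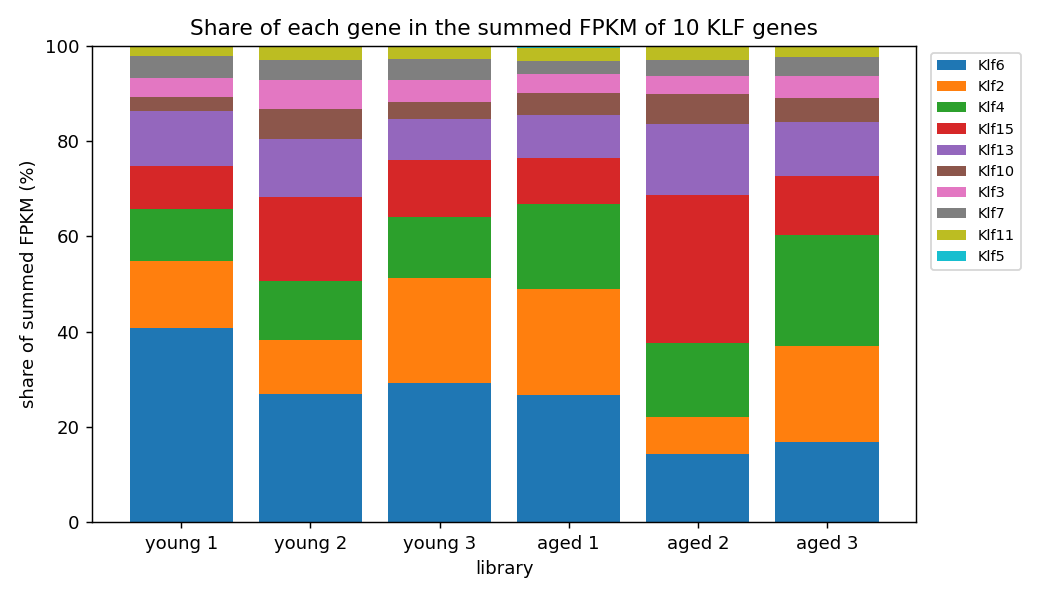
Share (%) of each KLF gene in the summed FPKM of the 10 genes, for each library. Klf6 takes 26.9% to 40.7% in young and 14.3% to 26.8% in aged libraries, Klf4 is at its highest in aged replicate 3 with 23.3%, and Klf15 in aged replicate 2 with 31%.

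Of 7 further KLF genes, 4 were tested and 0 had an unadjusted p below 0.05. Klf9, a clock and glucocorticoid responsive repressor, was the most abundant of them at 123, 40.6 and 207 CPM in young and 203, 346 and 257 CPM in aged replicates 1, 2 and 3. Per length, Klf9 was at 24.3, 8.23 and 42.9 FPKM in young and 36, 61.4 and 43 FPKM in aged replicates 1, 2 and 3, above all of the 10 genes in young replicate 3 and in the aged libraries. In CPM aged replicate 1 lay just under young replicate 3, and the log2 fold change was 1.12 (standard error 0.53, adjusted p = 0.517, edgeR). Klf16 was at 10.9 ± 1.05 and 8.51 ± 0.659 CPM (SD, n = 3 each) and Klf12 at 5.70 ± 2 and 6.29 ± 1.55 CPM (SD, n = 3 each). The erythroid factor Klf1, Klf14 and Klf17 had at most 5 counts in any library. In the sister family of SP factors, 5 of 9 genes were tested and 1 was lower at an unadjusted p below 0.05, the bone factor Sp7, at 1.02 ± 0.692 and 0.338 ± 0.125 CPM (SD, n = 3 each). Sp7 was at 1.8 CPM in young replicate 1 against 0.46 and 0.816 CPM in the other young libraries, and 0 SP genes passed without young replicate 1, without aged replicate 2 or without aged replicate 3. Sp1, the most abundant, was at 74.9 ± 6.99 and 62.9 ± 6.34 CPM (SD, n = 3 each).

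The genes above and below the KLF proteins were counted by lists, each beside the 10.4% of all genes at an unadjusted p below 0.05 and the median log2 fold change of 0.02. Of 12 genes upstream of Klf2 and Klf4, from the flow sensor Piezo1 to MEF2 and the CCM complex, 0 passed, and the median was -0.046. The count was 1 lower without young replicate 1 (Hdac5), without aged replicate 2 (Mef2a) or without aged replicate 3 (Mef2c). The most abundant, Mef2a, Mef2d and Hdac5, had log2 fold changes of -0.26, -0.011 and -0.34 (lowest adjusted p = 0.541, edgeR). Of 7 corepressor genes 0 passed, with a median of -0.13 and Ctbp1, Hdac1 and Sin3b at 79.2 ± 10.2, 66.7 ± 7.66 and 61.0 ± 7.83 CPM in aged aorta (SD, n = 3 each). Of 7 ubiquitin ligase genes 1 passed, Wwp1, whose product marks KLF2 and KLF5 for degradation. Wwp1 was at 42.5, 33.2 and 32.8 CPM in young and 49.2, 59.4 and 58.3 CPM in aged replicates 1, 2 and 3, without overlap, and its log2 fold change was 0.62 (standard error 0.17, adjusted p = 0.377, edgeR).

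Endothelial genes that KLF2 or KLF4 are known to induce were higher at an unadjusted p below 0.05 for 2 of 5 tested, with a median log2 fold change of 0.84. Nos3, the endothelial nitric oxide synthase, was higher by 1.51 on the log2 scale and the sphingosine receptor gene S1pr1 by 1.55 (adjusted p = 0.453 and 0.382, edgeR). Thbd, the anticoagulant thrombomodulin, had 0.84 and the water channel gene Aqp1 -0.061. Nppc had 0 counts in all young libraries and 3 to 15 counts in aged libraries. Beside these values, all 8 endothelial markers had positive log2 fold changes with a median of 0.71, and Pecam1 was at 870 CPM in aged replicate 3 against 167 to 225 CPM elsewhere. Of the 5 induced genes, 1 (S1pr1) was higher without young replicate 1 or without aged replicate 3, and 3 (Nos3, Thbd and S1pr1) without aged replicate 2. Without aged replicate 3 the medians were 0.38 for these genes and -0.091 for the endothelial markers. Of 5 genes that KLF2 or KLF4 are known to repress, the adhesion molecule gene Vcam1 was higher (log2 fold change 1.26, adjusted p = 0.390, edgeR) and the endothelin gene Edn1 lower (-1.42, adjusted p = 0.448, edgeR) at an unadjusted p below 0.05. Of these genes 4 of 5 had values above 0, with a median of 1.26 that became 0.35 without aged replicate 3. Edn1 no longer passed without young replicate 1 or without aged replicate 2, where Vcam1 still did. Without aged replicate 2 the selectin gene Sele was also higher, with only 5 to 83 counts in a library.

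The contractile list, which holds the activators Srf and Myocd and targets that KLF4 is known to repress, had log2 fold changes below 0 for 8 of 8 genes, with a median of -0.49, and 5 were lower at an unadjusted p below 0.05 (Myocd, Srf, Myh11, Smtn and Lmod1). Without aged replicate 2 this count was 2 and without aged replicate 3 it was 3, and Srf was among them in both. Srf was at 49.8, 52.6 and 60.5 CPM in young and 33.6, 26.8 and 36.4 CPM in aged replicates 1, 2 and 3, without overlap (log2 fold change -0.75, standard error 0.17, adjusted p = 0.372, edgeR). Myh11 and Lmod1 had -0.44 and -0.54 (adjusted p = 0.474 and 0.415, edgeR), whereas the most abundant, Acta2 and Tagln, had -0.20 and -0.015. Beside these values, 7 of 7 macrophage and 4 of 6 fibroblast markers were higher at an unadjusted p below 0.05, and summed to 52.2 to 66.8 and 1860 to 2860 CPM in young and 82.4 to 230 and 1700 to 6580 CPM in aged libraries. Without young replicate 1 or without aged replicate 3, the fibroblast count was 2 (Pdgfra and Dpt), and without aged replicate 2 it was 5. The macrophage count stayed at 7 in each of these cases. The part of macrophages and fibroblasts in the contractile or KLF levels was not tested.

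Of 5 growth genes linked to KLF5, 3 were higher and 1 lower at an unadjusted p below 0.05. Without young replicate 1 the count was 1 higher and 1 lower. Of the genes higher with all libraries, Ccnb1 and Cdk1 had only 8 to 73 and 20 to 87 counts in a library. The cyclin gene Ccnd1 was higher by 1.95 on the log2 scale (standard error 0.29, adjusted p = 0.259, edgeR), and Pdgfa, a growth factor gene, had -0.54 (adjusted p = 0.418, edgeR). Of 8 genes that TGF-beta induces as it does Klf10 and Klf11, 0 passed, with 4 up, 4 down and a median of 0.0096 (2 higher without aged replicate 2, Skil and Tgfbi, and 1 higher without aged replicate 3, Skil), and the most abundant, Ccn2, was at 1280 ± 481 and 1210 ± 111 CPM (SD, n = 3 each). Of 7 amino acid and glucose genes linked to KLF15, 0 passed, with a median of 0.52 that became -0.22 with 2 genes lower without aged replicate 2, as Klf15 itself changed sign. Pck1, a gene of glucose synthesis and of fat, was at 366 CPM in aged replicate 2 and 227 CPM in young replicate 2 against 19.6 to 51.1 CPM elsewhere. These were the libraries in which Klf15 was highest. They also had the highest sums of brown (1810 and 524 CPM) and white (2740 and 1730 CPM) fat markers.

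Early response signals are known to induce Klf2, Klf4, Klf6 and Klf10, and the clock and glucocorticoids act on Klf9 and Klf15. Of 13 immediate early genes 1 was higher and 2 lower at an unadjusted p below 0.05. The AP-1 gene Junb was at 1.22 and the stress gene Atf3 at -1.79 on the log2 fold scale (adjusted p = 0.377 for both, edgeR), and Nr4a1 had -0.69 (adjusted p = 0.428, edgeR). Nr4a1 no longer passed without young replicate 1, without aged replicate 2 or without aged replicate 3, while Junb and Atf3 still passed. Egr1 was at 410, 149 and 406 CPM in young and 216, 168 and 209 CPM in aged replicates 1, 2 and 3, lowest in the same libraries as Klf2. Of 10 clock repressors and outputs 0 passed and of 4 clock activators 1, Clock, at -1.08 on that scale (adjusted p = 0.429, edgeR), a count that was 0 without young replicate 1 or without aged replicate 3 and 2 without aged replicate 2. Without young replicate 1, 2 of the 10 repressors and outputs were lower (Per2 and Dbp) and the median was -0.39, against 0.059 with all libraries. Of 8 glucocorticoid response genes 5 were higher at an unadjusted p below 0.05 and all 8 had positive values with a median of 1.76, led by Fkbp5 at 3.11 and Cebpd at 1.80 (adjusted p = 0.306 and 0.259, edgeR).

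**Figure D5:**
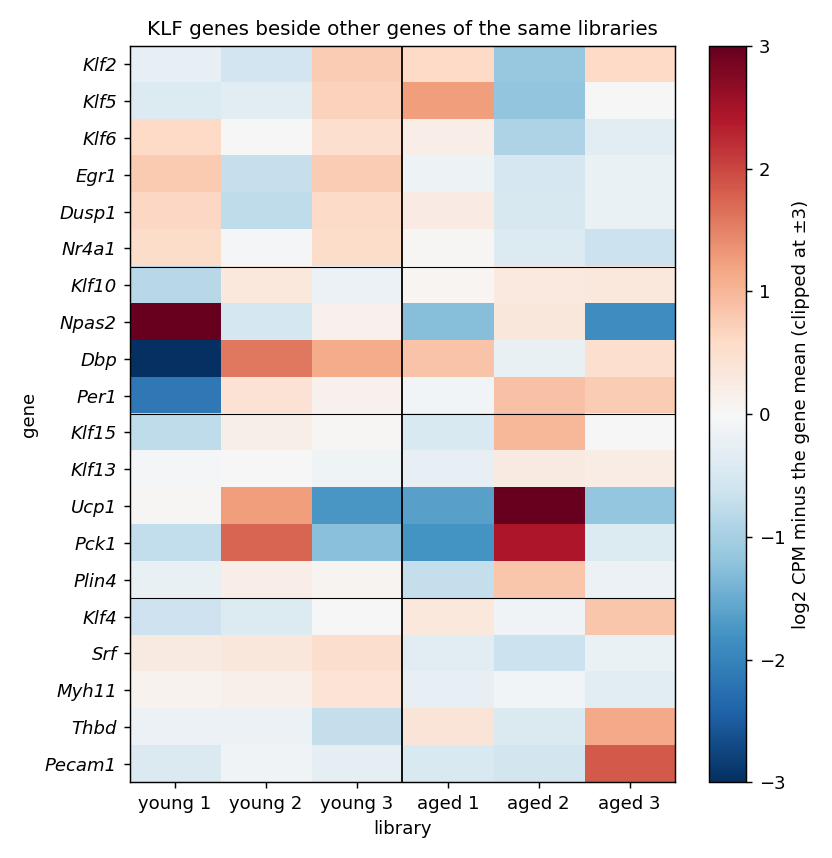
Log2 CPM of KLF genes and of other genes named in the text, each minus its mean over the 6 libraries (red higher, blue lower), with young libraries left and aged libraries right of the line. Klf2, Klf5 and Klf6 are lowest in aged replicate 2, Klf10 is lowest in young replicate 1 with Dbp and Per1, and Klf15 is highest in aged replicate 2 with Ucp1 and Pck1.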

How the data were processed

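Aorta of 6 mice was sequenced from mRNA libraries with single-ended reads, according to the study's methods. The authors deposited counts of reads per gene, which are whole numbers without normalization, and FPKM, deposited values scaled by definition to gene length and library size. The labels name the build mm10, and aligner, counting tool and annotation are not given in the sources used here. Totals were 31049632 to 45832185 counts, and a KLF gene had 16 to 9061 counts in a library, with the lowest counts for Klf5. Counting error was not set against the spread between mice. Of 55335 gene identifiers, 55154 were found in GENCODE M21 (GRCm38), which gave coordinates.

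Counts were filtered (filterByExpr, minimum count 10, minimum total 15), scaled by TMM and fitted with edgeR 4.0.16 in R 4.3.3, without covariates, by quasi-likelihood F tests with Benjamini-Hochberg adjustment over 16612 genes at 0.05. Standard errors are the log2 fold change divided by the square root of F. The fit was tested on simulated data. Other settings used DESeq2 1.42.0 and limma 3.58.1, other filters and scaling, and fewer libraries. Counts over gene lists were repeated with young replicate 1, aged replicate 2 or aged replicate 3 left out, a choice made after seeing the data. Members and 25 gene lists were chosen from general knowledge with earlier results of these data known. Named from each list were the 3 most abundant genes and the 2 with the smallest p. Nppc, Klf1, Klf14, Klf17, Cd3e, Epcam, Myocd, Smtn, Cdk1, Per2 and Sele were named after their values were seen. Protein sequences were not used here, and 1 gene that the rule names is not reported here. For each KLF gene spanning over 1 log2 unit, the 3 genes of most similar profile were named. Replicates are separate mice. Ctgf in the table was read as Ccn2.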

Additional observations from a re-analysis of the deposited data

How the results depend on the processing

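Across 15 other settings, edgeR, DESeq2 and limma called 0 of the 10 KLF genes, and 5 of the 10 kept the sign of the log2 fold change in all of them, namely Klf3, Klf4, Klf6, Klf7 and Klf10. The number of all genes called, 0, became 338 with DESeq2 and lay between 0 and 110 with 1 library left out, the latter without aged replicate 2. The number of KLF genes at an unadjusted p below 0.05, 1, became 2 with no filter (7.29% of all genes) and with DESeq2 (11.9%), Klf4 and Klf6 in both, and 2 with limma on FPKM at either pseudocount (16.1% and 16%), Klf6 and Klf7. When single libraries were dropped, the number ranged from 0 (without young replicate 1, 11.3% of all genes) to 2 (without young replicate 2, Klf6 and Klf10, 7.38%). With pseudocounts of 1 and 0.1, limma on FPKM turned Klf2 to -0.17 and -0.19, Klf11 to -0.070 and -0.087 and Klf13 to -0.065 and -0.072, and with 0.1 Klf5 to -0.063, while the median of all genes moved to -0.12 and -0.19. Without both young replicate 1 and aged replicate 2, Klf11 was at -0.054 and Klf15 at -0.30. With 1 library left out Klf2 lay between -0.13 and 0.61, Klf5 between -0.60 and 0.77, Klf11 between -0.047 and 0.30, and Klf15 between -0.069 and 0.71. The cause was not tested. Under the replicate block, 0 genes were called by edgeR and 3 KLF genes had an unadjusted p below 0.05 (Klf4, Klf6 and Klf7), where 10.7% of all genes did. Deviations from the group means correlated at 0.0786, 0.117 and 0.0957 between libraries of the same number, each the highest for its libraries. Deviations from a mean of 3 libraries are tied to one another, so these small values cannot show a pairing. They come from the data and not the design, and the numbers were not taken to pair the mice. Klf5, at 16 to 85 counts, is the KLF gene whose depth limits what can be read.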

Other observations

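Genes with profiles most like those of the KLF genes were sought among genes whose mean CPM reached 5, by the root mean square difference of log2 CPM over the 6 libraries after each gene was centred on its own mean. The points share libraries, depth and tissue makeup, so the likeness is a description. For Klf2 these were Fosb (0.225 log2 units), Trib2 (0.241) and S1pr2 (0.242), of which Fosb is an AP-1 gene of the early response and S1pr2 a sphingosine receptor gene. S1pr2 (0.266) was also nearest to Klf5, followed by the cytokine feedback gene Socs3 (0.268) and Lhfpl2 (0.271). For Klf4 they were Zfp970 (0.126), the chromatin gene Hmga1 (0.135) and Aida (0.149). For Klf6 they were Mrgprf (0.1), 2700049A03Rik (0.108) and the Wnt receptor gene Fzd8 (0.143). For Klf10 they were Tmem86a (0.108), the muscle chaperone gene Hspb7 (0.116) and Slc43a1 (0.120), and for Klf15 Rnf152 (0.159), Cbarp (0.188) and Zc3h11a (0.192). Mrgprf was at 42.8, 24.3 and 37.2 CPM in young and 26.7, 14.4 and 19.0 CPM in aged replicates 1, 2 and 3, the same order of libraries as for Klf6.

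Other cell types that express KLF genes were few in these libraries or uneven between them. Lymphocyte markers, which would accompany Klf2 and Klf13 of T cells, summed to 2.39 to 8.71 CPM in young and 2.60 to 4.42 CPM in aged libraries. Cd3e was at 0 counts in young replicate 1 and aged replicates 1 and 2. Within these sums Ptprc, a gene of leukocytes in general, was at 2.22 ± 1.81 and 2.30 ± 0.827 CPM (SD, n = 3 each). Mesothelial and epithelial markers, which would accompany Klf5, summed to 25.1 to 82.3 and 12 to 75.9 CPM, and Epcam had at most 6 counts. Striated muscle markers summed to 268 CPM in young replicate 1 and to 43.4 to 61.3 CPM elsewhere, with 2 of 7 lower in aged aorta at an unadjusted p below 0.05 and 0 of 7 lower without young replicate 1. Schwann cell markers summed to 11.8 to 17.0 and 15.3 to 30.2 CPM and red blood cell markers to 285 to 443 and 254 to 574 CPM, with 0 of 4 and 0 of 3 passing.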
